A study of Mus musculus with 36 samples.

Results

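The nuclear genes for the proteins of the mitochondrial ribosome were followed through the postnatal development of mouse liver. They were all rows of the deposited expression table whose symbol is Mrpl or Mrps, a number and at most one letter from a to c, which gave 76 of 21889 gene symbols, 47 Mrpl and 29 Mrps. Livers of male C57BL/6 mice (substrain C57BL/6J by the study's methods) were taken at 12 ages, Day -2 (2 days before birth), Days 0, 1, 3 and 5 after birth, Days 10, 15 and 20 before weaning and Days 25, 30, 45 and 60 after it, with 3 mice at each age and 36 in all. The mice carried no transgene or treatment that the sources name, Day 0 was taken before suckling and weaning was at 21 days. Polyadenylated RNA of whole liver was sequenced, so that each value is a bulk level over hepatocytes and all other cells of the organ, and fewer cells of a type cannot be told apart from less RNA per cell.

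Mitochondria translate the few proteins that their own genome encodes, all of them subunits of the respiratory chain and ATP synthase, on a ribosome of their own. Its rRNAs come from mitochondrial DNA, while every protein of its large and small subunit is encoded in the nucleus, made in the cytosol and imported. Part of these proteins have counterparts in the bacterial ribosome and carry the bacterial number, and the rest were added in the mitochondrial lineage. Around birth the liver turns from a blood-forming organ to one that oxidizes the fat of milk, which draws on the respiratory chain. The symbols do not follow the structure in every case. Mrps30 and Mrps18a are placed in the large subunit, and Mrps36 is now regarded as a part of the 2-oxoglutarate dehydrogenase complex.

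Levels are given as FPKM, mapped fragments scaled to transcript length and to the library total, so that they can be compared between genes per length. Summed FPKM over all genes was 353712 to 450597 per library, and about 83400000 fragments per library were estimated from the steps of low values. The upper quartile of tested genes ranged from 7.06 to 15.25 FPKM. The sum of erythroid markers was 171810 FPKM before birth, at Day -2, against 745 FPKM at Day 60, and that of hepatocyte markers 9137 and 50181 FPKM. Libraries also differed in how short genes stood against long ones. The median log2 deviation from the gene's mean over all mice, for 786 genes under 1 kb minus that for 4884 genes over 3 kb, was between -0.51 and 0.81, highest in mouse 1 of Day 30 and mouse 2 of Day 25 (0.51). The longest annotated transcript of the 76 genes had a median of 1213 bases, against 2791 bases for the tested genes, and in mouse 1 of Day 30 the median member stood 0.14 above its age mean on the log2 scale while the median tested gene stood 0.19 below (-0.19). In mouse 1 of Day -2, where the length difference was -0.45, 9 of the 76 were above their age mean. The part of this library difference in the results was not tested beyond the alternatives given beside them.

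All 76 genes passed the filter on low values, an age mean of 1 FPKM or more at some age, as did 11149 genes in all. Mean levels over the 12 ages had a median of 15.5 FPKM. Mrpl52 of the large subunit was highest at 113 FPKM. It was followed by Mrpl12 (86.8 FPKM), which forms the stalk that recruits translation factors, by Mrpl14 (71.3 FPKM) and Mrpl20 (53.5 FPKM) of the large subunit, and by Mrps16 (50.7 FPKM) of the small subunit. The lowest were Mrps33 (0.81 FPKM), Mrps36 (1.02 FPKM) and Mrpl21 (1.67 FPKM). The 44 genes with a bacterial number had a median of 17.4 FPKM and the 32 with a mitochondrial number 13.9 FPKM.

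Promoters of the members were searched for letters bound by NRF1, the ETS factor GABP and YY1, which are known as activators of mitochondrial genes and whose own mRNAs are given further on. RefSeq windows of 300 bases (GRCm38.p6, 250 before to 50 after a start) were at hand for 67 of the 76 genes, with 73 windows in all. The NRF1 core GCGCATGC stood on either strand in windows of 11.9% of these genes, against 5.91% of the tested genes with a window and 3.05% of all genes. The ETS site CCGGAAGT stood in 17.9% (8.85% and 4.31%), and the YY1 core AAGATGGC in 17.9% (5.27% and 3.19%). In the same order, nuclear-encoded subunits of the respiratory chain and ATP synthase held these letters in 15.2%, 7.58% and 13.6% of genes. Cytosolic ribosomal proteins held them in 4.76%, 19% and 11.1%, so that the NRF1 and ETS shares are not particular to the members. For comparison the E-box CACGTG stood in 7.46% (11.9% and 8.09%), and TATAAA in 7.46% (9.67% and 15.7%). Any of the first 3 was found for 29 of the 67 genes. Of the 12 windows with the YY1 letters, 8 held them only after the start; the letters hold an ATG and can coincide with a start codon. The 12 genes with the ETS letters had a median early-against-late difference of 0.60 and the 55 without them 0.23, for NRF1 these were 0.31 and 0.29, and for YY1 0.18 and 0.31; these are descriptions without a test, and a match of letters is not a site.

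The 120 bases before the start of 5 members are shown (RefSeq, GRCm38.p6, 5′ to 3′) with the NRF1 core or ETS letters in capitals, as printed on the strand of the gene. Only members with a match in these bases could be chosen, so the 5 do not show that members with large changes carry these letters. Mrpl18, with the largest fall at birth, held its ETS letters only further upstream. Mrpl50, Mrps14 and Mrps31 had no NRF1, ETS or YY1 letters in their windows. Mrpl3 (chr9:105053148-105053267, plus strand) had the largest early difference. Mrps22 (chr9:98601680-98601799, minus strand) and Mrpl32 (chr13:14613038-14613157, minus strand) were among the falls at birth. Mrps27 (chr13:99344666-99344785, plus strand) and Mrpl9 (chr3:94443216-94443335, plus strand) were among the changes across weaning.
Mrpl3: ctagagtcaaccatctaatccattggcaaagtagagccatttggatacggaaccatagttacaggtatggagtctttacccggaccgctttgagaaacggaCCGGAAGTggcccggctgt
Mrps22: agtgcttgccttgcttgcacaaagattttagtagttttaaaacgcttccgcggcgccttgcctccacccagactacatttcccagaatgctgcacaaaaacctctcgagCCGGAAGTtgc
Mrpl32: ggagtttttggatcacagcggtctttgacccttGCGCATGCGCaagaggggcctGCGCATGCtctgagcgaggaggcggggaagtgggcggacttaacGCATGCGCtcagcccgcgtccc
Mrps27: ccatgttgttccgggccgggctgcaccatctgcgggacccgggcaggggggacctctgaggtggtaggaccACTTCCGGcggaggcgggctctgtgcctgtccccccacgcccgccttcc
Mrpl9: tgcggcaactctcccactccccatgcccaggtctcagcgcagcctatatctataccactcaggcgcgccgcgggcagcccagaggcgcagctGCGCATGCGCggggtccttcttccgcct
In Mrpl3 and Mrps22 the ETS letters stood 19 and 11 bases before the start, and in Mrps27 they stood on the opposite strand. Mrpl32 held the NRF1 core at 4 overlapping or separate places, and Mrpl9 at 2 overlapping ones.

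The highest age mean of a gene was a median of 1.95 times its lowest, and 39 of the 76 stayed under a ratio of 2. Mrps2 (1.28), Mrpl24 (1.40) and Mrps34 (1.45) had the smallest ratios. The largest were those of Mrps36 (5.34), Mrpl18 (3.63) and Mrps14 (3.17), and 5 genes reached 3. The highest age was Day -2 for 40 genes and Day 5 for 19, while 41.1% and 13.8% of all tested genes were highest at those ages. The lowest age was Day 45 for 22, Day 20 for 21 and Day 0 for 11. Over the 12 age means the log2 level of a member followed the median of the others with a median Pearson r of 0.80. This describes age means, in which the spread between mice is averaged out. The 5 genes that followed it least were Mrpl14 (-0.21), Mrpl38 (-0.02), Mrpl27 (-0.01), Mrps10 (0.06) and Mrps12 (0.08), chosen after their values were seen.

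The heat map of age means shows this as a band of higher values from Day -2 to Day 5 in the upper rows, with a paler column at Day 0, and lower rows that follow no common course.

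**Figure D1:**
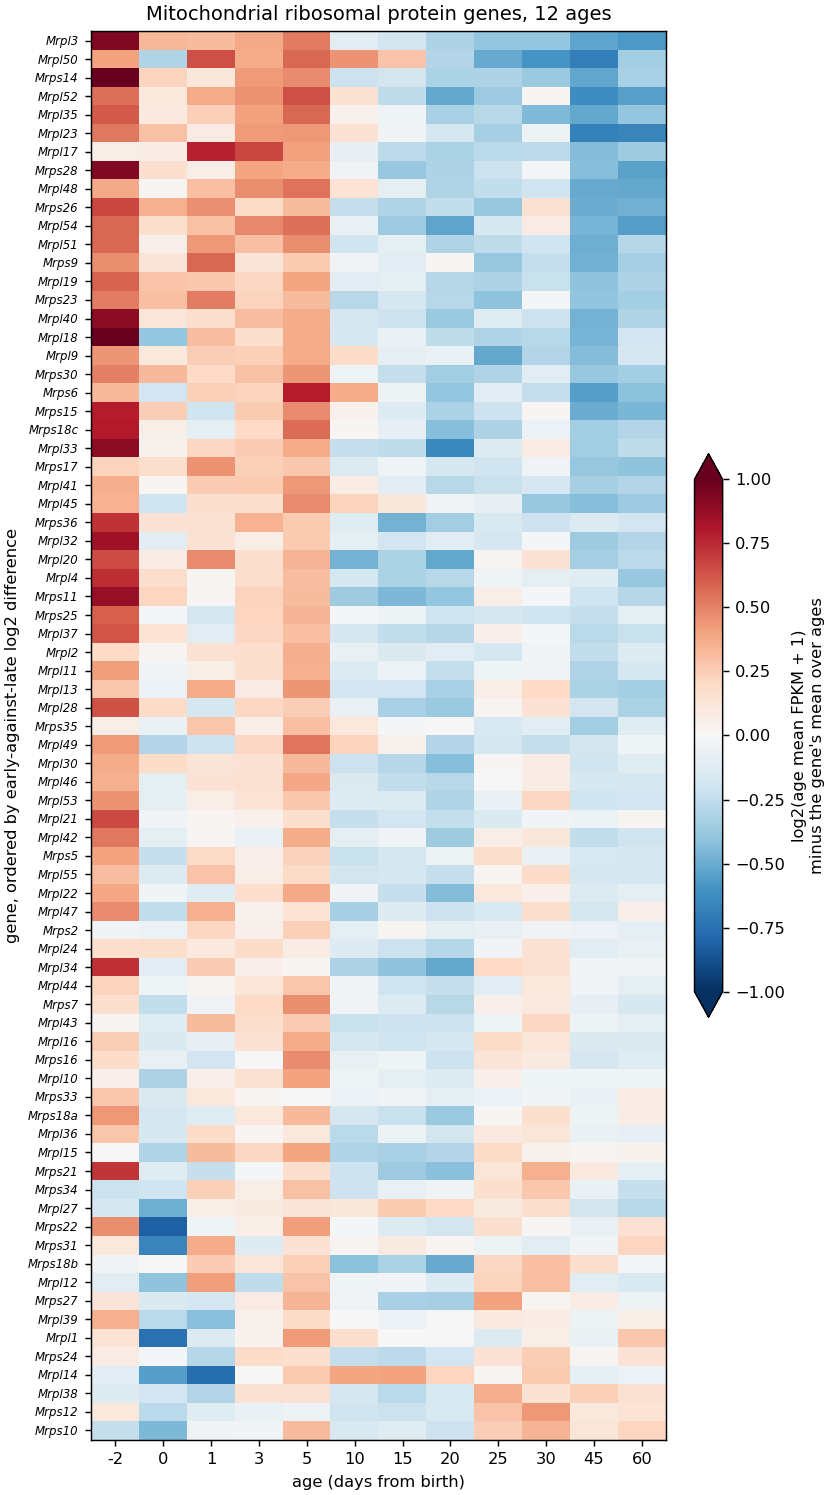
Heat map of the 76 genes (rows) over 12 ages (columns, evenly spaced); colour is the log2 of the age mean FPKM + 1 minus the gene's mean over ages, capped at 1 in both directions, and rows are ordered by the early-against-late difference. Mrpl3 at the top was highest at Day -2, Mrpl14 near the foot was lowest at Day 1, and the early band is one of FPKM that turned with upper quartile scaling.

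Summed over the family, the mRNA of the mitochondrial ribosome was 2085 ± 309 FPKM (SD, n = 3) at Day -2. The 3 livers of that age held 1742, 2338 and 2176 FPKM. At birth the sum was 1534 ± 125 FPKM, and by Day 5 it was 2042 ± 304 FPKM. It was lowest at Day 20, at 1324 ± 81.6 FPKM, and 1388 ± 184 FPKM at Day 60. The livers of Day 5 (1743 to 2351 FPKM) lay above those of Day 60 (1229 to 1590 FPKM) without overlap, while those of Day 30 (1522 to 2000 FPKM) overlapped them. As a share of all FPKM the family was 0.488% at Day -2 and 0.499% at Day 5, against 0.356% at Day 0 and 0.351% at Day 60. The share was 0.410% at Day 3, and 0.419% and 0.435% at Days 25 and 30, so that not every early age stood above every late one. Divided by the upper quartile of tested genes instead, the order changed. That value was 147 ± 21.7 at Day -2 and 140 ± 13.3 at Day 5, close to the 148 ± 17.5 of Day 60. It ran from 124 ± 12.9 at Day 3 to 205 ± 67.7 at Day 30. At Day -2 and Day 5 the family thus stood above Day 60 against total FPKM and not against the upper quartile. Mrpl and Mrps mRNA kept close to one ratio, between 1.88 and 2.17 at every age.

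**Figure D2:**
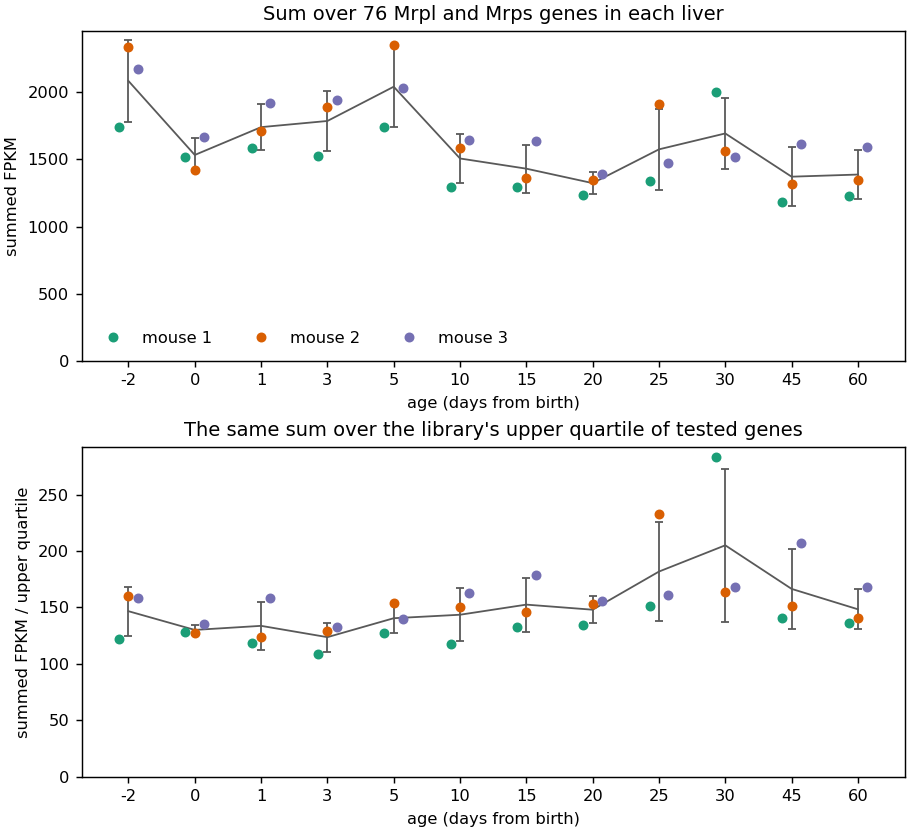
Sum of the 76 genes in each of 36 livers by age in days (evenly spaced), as FPKM (top) and divided by the upper quartile of tested genes in the same library (bottom, no unit); points are mice, the line joins age means and bars are SD (n = 3). The top panel is highest at Day -2 and Day 5, which the bottom panel does not show; it is highest at Day 30, where mouse 1 stands at 283.

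Ratios within a library do not depend on its scaling. Genes for cytosolic ribosomal proteins, the proteins of the ribosome that makes all other cell proteins, summed to 9.05 ± 0.50 times the mitochondrial ones at Day -2 and 9.54 ± 0.67 times at Day 0. This ratio was 4.94 ± 0.071 at Day 5, 2.95 ± 0.26 at Day 15 and 2.92 ± 0.18 at Day 60, and every liver up to Day 3 (6.74 or more) lay above every liver from Day 10 on (4.04 or less). Subunits of the respiratory chain and ATP synthase encoded in the nucleus took another course. They summed to 5.29 ± 0.17 times the mitochondrial ribosomal proteins at Day -2, with 5.41, 5.36 and 5.10 in the 3 livers. The ratio was 6.81 ± 0.23 at Day 0, before suckling, then 5.34 ± 0.14 at Day 5, 7.85 ± 0.31 at Day 20 and 7.38 ± 0.067 at Day 60. The livers of Day -2 and Day 5 overlapped each other and lay below those of every other age. Between early and late ages 77 of 78 tested cytosolic ribosomal proteins were higher and 1 lower on FPKM (73 and 1 with upper quartile scaling), and of 80 tested respiratory chain subunits 17 were higher and 23 lower (5 and 72). Of all tested genes 70.2% were higher and 15.5% lower on FPKM, and 46.8% and 32% with upper quartile scaling. The ratios are values without a test, and each shows unequal change of the sums, not which of them moved.

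**Figure D3:**
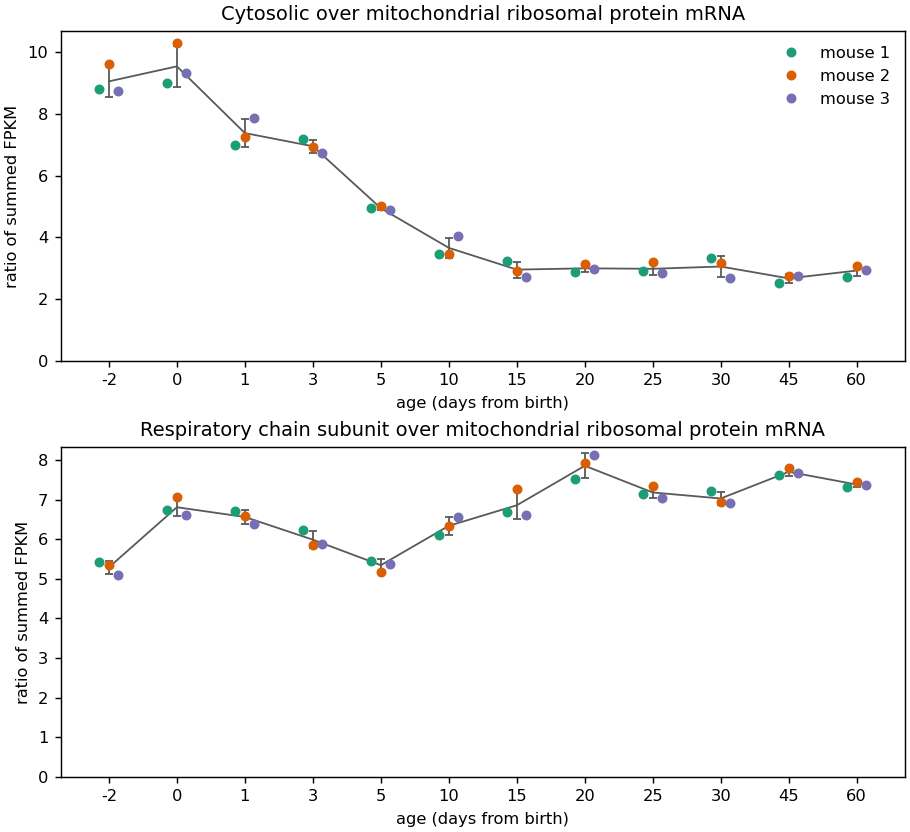
Ratio of the summed FPKM of cytosolic ribosomal proteins (top) and of nuclear-encoded respiratory chain and ATP synthase subunits (bottom) to that of the 76 mitochondrial ribosomal proteins, in each liver by age in days (evenly spaced); points are mice, the line joins means and bars are SD (n = 3). The top ratio falls from over 8 at Day -2 to about 3 from Day 15 on, and the bottom ratio has low points at Day -2 and Day 5.

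Each age was compared with Day 60, the adult reference, to ask when the adult level was reached. The 11 comparisons share the Day 60 livers. With limma on log2(FPKM + 1), 66 of the 76 genes differed from the adult livers at 1 or more ages, as did 90.7% of all tested genes. The 10 that did not were Mrpl12, Mrpl24, Mrpl27, Mrpl38, Mrpl55, Mrps2, Mrps12, Mrps24, Mrps33 and Mrps34. This count is adjusted over all 11 comparisons together, and the counts per age that follow within each comparison. In the latter Mrpl38, Mrpl55, Mrps33 and Mrps34 are each called at 1 age, and Mrps18a and Mrps18b at no age. Members higher than at Day 60 numbered 54 at Day -2, where 56.4% of tested genes were higher. Of the members, 23 were higher on Day 0 (43.6% of tested genes), 31 on Day 1 (53.4%), 36 on Day 3 (55.7%) and 52 on Day 5 (56.9%). Later the number was 11 on Day 10 (35.3%), 7 on Day 15 (18.4%), 1 on Day 20 (8.93%) and 2 on Day 25 (4.18%). No member was higher at Day 30 (1.77% of tested genes) or Day 45 (0.0628%), although 13 and 0 had an unadjusted p under 0.05 and Dunnett's test within each gene called 3 (2.95% of tested genes) and 0 (0.278%). At Day 30 the count was 2 with upper quartile scaling (3.79% of tested genes), 3 without the trend on GC content and length (4.09%) and 6 with TPM scaling (2.88%). The count at Day 0 lay below those of Day -2 and Day 1, so that the course was not even. The share of all tested genes dipped at Day 0 too (43.6%, against 56.4% and 53.4%).

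Members lower than at Day 60 were few. They numbered 1 at Day -2 (18.6% of tested genes), 8 at Day 0 (20.3%), 4 at Day 1 (11.7%) and 1 at Day 15 (8.95%). Dunnett's test called 1 (16.1%), 4 (16.4%), 1 (9.44%) and 0 (7.76%) at those ages, with 5 at Day 15 at an unadjusted p under 0.05 in limma. The direction of these counts rests on the scaling of FPKM to each library's total. With upper quartile scaling, 16 members were higher and 15 lower at Day -2, where 40.7% and 29% of tested genes were. These numbers were 5 and 20 at Day 0 (35.6% and 29.8% of tested genes), 6 and 15 at Day 1 (36.3% and 21.7%), 2 and 23 at Day 3 (34.2% and 23.3%), and 6 and 9 at Day 5 (33.3% and 21%).

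The early ages (Day -2 to Day 5) were then compared with the late ages (Days 25 to 60), each age with equal weight. On FPKM, 46 members were higher early and 3 lower, but with upper quartile scaling 7 were higher and 44 lower, and with the trend on GC content and length removed 12 and 46. Among all tested genes 70.2% were higher and 15.5% lower on FPKM, 46.8% and 32% with upper quartile scaling, and 41.3% and 39.9% of the 10887 with a value without the GC and length trend. The median log2 difference of the members was 0.30 against 0.54 for all tested genes on FPKM, and -0.30 against 0.14 with upper quartile scaling, which moved the median of all genes from 0.54 to 0.14. Under both scalings the median member lay below the median tested gene. Of the Mrpl genes 31 of 47 were higher and 1 lower on FPKM (5 and 28 with upper quartile scaling), and of the Mrps genes 15 of 29 and 2 (2 and 16).

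**Figure D4:**
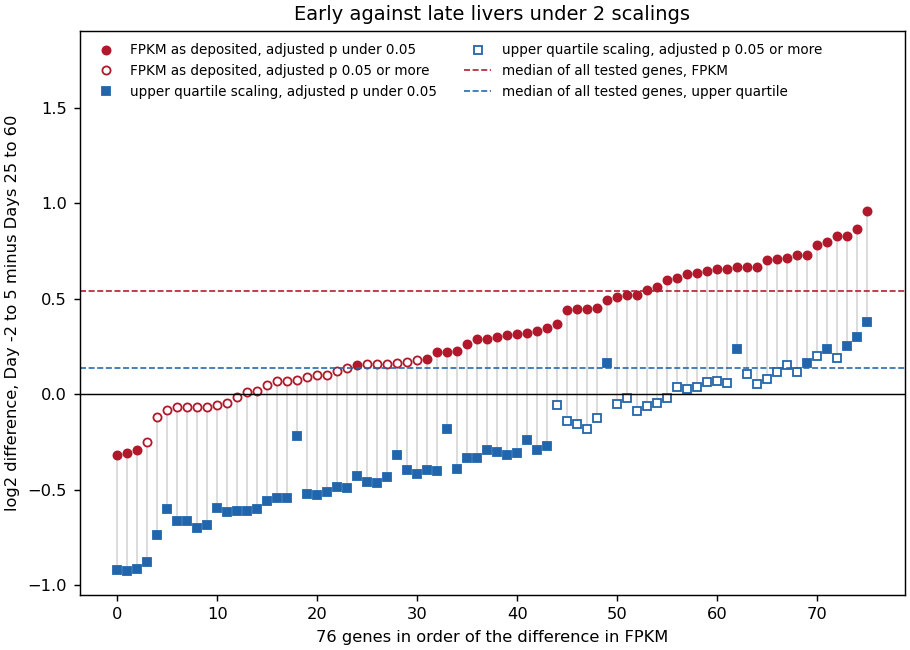
Log2 difference of early (Day -2 to Day 5) minus late (Days 25 to 60) livers for each of the 76 genes, in order of the difference in FPKM; circles are FPKM as deposited, squares upper quartile scaling, filled where the adjusted p was under 0.05, and dashed lines are the medians of all 11149 tested genes. Most circles lie above 0 and most squares below it, with Mrpl3 at the right end above 0 under both.

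Members that held one direction under all 3 treatments of the data were few and can be named. Mrpl3, Mrpl35, Mrpl50 and Mrps14 were higher early, and Mrpl38, Mrps10 and Mrps12 were lower early. Mrpl3, a core protein of the large subunit (chromosome 9, 104955569 to 104979796, mm9), was measured at 17.55, 21.98 and 20.57 FPKM at Day -2. It was at 12.0, 17.5 and 15.2 FPKM at Day 5 and at 5.93, 6.34 and 7.02 FPKM at Day 60. Every liver up to Day 5 (11.7 FPKM or more) was above every liver from Day 10 on (9.87 FPKM or less). Its log2 difference was 0.96 ± 0.055 (SE) with an adjusted p of 7.4e-16, and 0.38 with upper quartile scaling (adjusted p 3.9e-08).

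Mrps14, which lies in the head of the small subunit, was at 19.9, 18.7 and 19.7 FPKM at Day -2 and at 6.61, 6.87 and 7.92 FPKM at Day 60. Its difference was 0.83 ± 0.056 (adjusted p 4.1e-14), and that of Mrpl35 was 0.80 ± 0.083 (adjusted p 5.6e-10). Mrpl50, a protein of the large subunit without a bacterial counterpart, was between 8.16 and 15.9 FPKM in the livers of Days 1 to 15, and between 4.62 and 7.62 FPKM in those of Days 20 to 60. At Day 0 it was at 7.90, 6.77 and 5.41 FPKM, which overlaps the livers of Days 20 to 60. Its early difference was 0.87 ± 0.073 (adjusted p 6.0e-12). Mrpl52, the most abundant member and one of the shortest at 412 bases, had 124, 177 and 177 FPKM at Day -2 and 64.4, 63.0 and 95.2 FPKM at Day 60. Its FPKM difference of 0.83 ± 0.12 (adjusted p 1.9e-07) became 0.19 with upper quartile scaling (adjusted p 0.19) and turned to -0.19 without the GC and length trend (adjusted p 0.012).

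The 3 members that were lower early had modest differences. Mrps12, a protein of the decoding centre, was at 25.7, 33.5 and 33.8 FPKM at Day -2 and at 23.4, 22.1 and 25.5 FPKM at Day 0. At Day 60 it was at 28.48, 32.04 and 34.75 FPKM, which overlaps Day -2 but not Day 0. The early difference was -0.31 ± 0.095 (adjusted p 0.0042), against -0.32 ± 0.075 for Mrps10 (adjusted p 3.0e-04) and -0.29 ± 0.087 for Mrpl38 (adjusted p 0.0031).

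**Figure D5:**
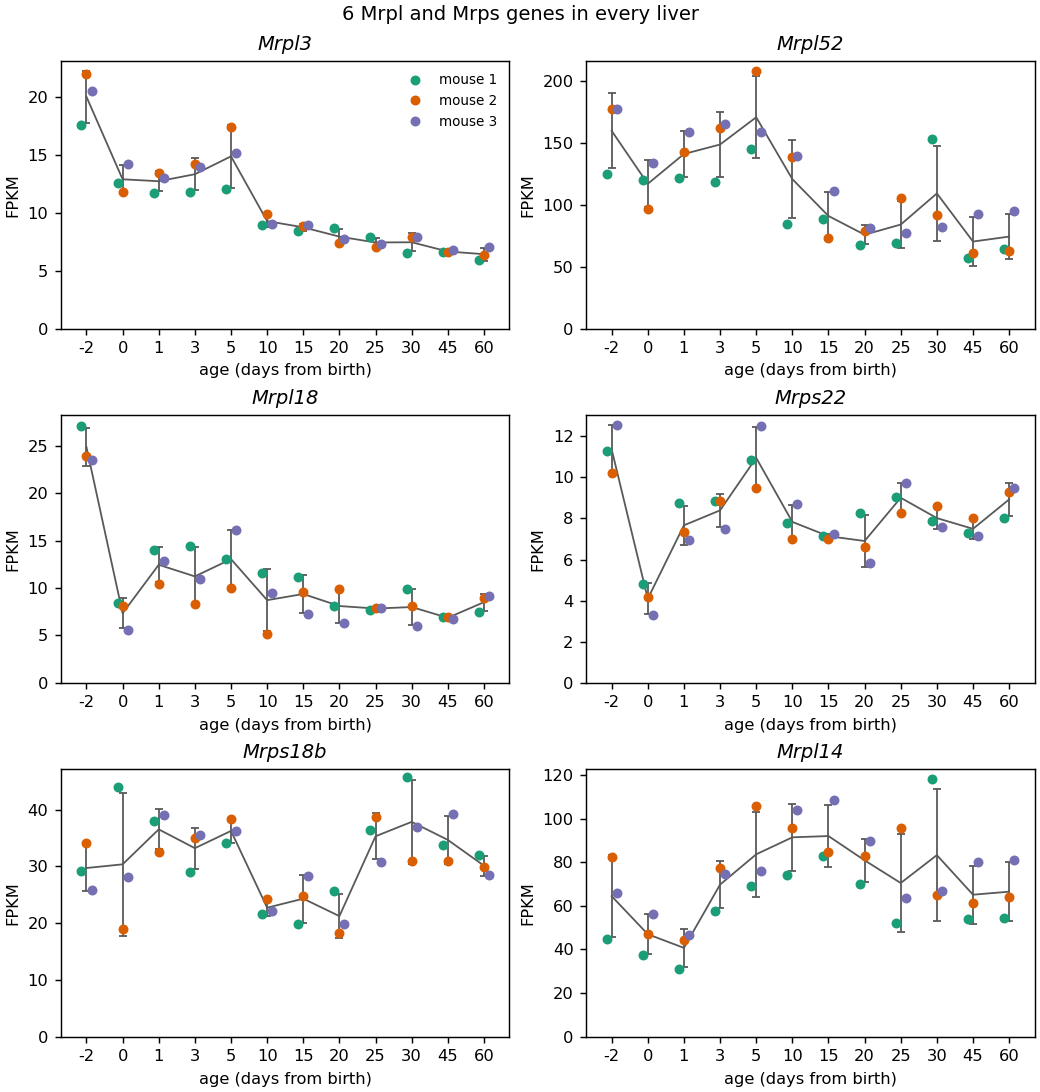
FPKM of 6 genes in each of 36 livers by age in days (evenly spaced); points are mice, lines join age means and bars are SD (n = 3). Mrpl3 declines from Day -2 to Day 60, Mrpl18 and Mrps22 drop at Day 0, Mrps18b is low at Days 10 to 20, and Mrpl14 is lowest at Day 1.

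The pre-weaning livers of Days 10 to 20 were compared with those after weaning. Against Days 25 to 60, 14 members were higher and 19 lower on FPKM, and 5 were higher and 32 lower with upper quartile scaling. Of all tested genes 44.9% were higher and 12.4% lower on FPKM, and 37.3% and 18.6% with upper quartile scaling. The median log2 difference was -0.06 for members and 0.19 for all tested genes. Mrpl15, Mrpl16, Mrpl20, Mrps18b, Mrps21, Mrps22, Mrps27 and 11 others, 18 in all, were lower under all 3 treatments of the data, and Mrpl9, Mrpl23, Mrpl45 and Mrpl50 were higher. Mrps18b, one of the 3 proteins related to bacterial S18, had the largest difference on the lower side. Its livers at Days 10, 15 and 20 held between 18.3 and 28.3 FPKM, and those of Days 25 to 60 between 28.5 and 45.7 FPKM, without overlap. The difference was -0.58 ± 0.10 (adjusted p 3.0e-05), followed by Mrpl34 with -0.44 ± 0.16 (adjusted p 0.019) and Mrps21 with -0.43 ± 0.12 (adjusted p 0.0039). Without the 2 libraries that had the largest length difference, the value of Mrpl34 was -0.30 and no longer passed the threshold, nor did it without mouse 1 of Day 20 (-0.37). On the higher side stood Mrpl50 with 0.67 ± 0.083 (adjusted p 9.2e-08), Mrpl23 of the polypeptide exit region with 0.42 ± 0.11 (adjusted p 0.0022), and Mrpl45, which ties the ribosome to the inner membrane, with 0.42 ± 0.064 (adjusted p 2.5e-06).

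Between the early ages and Days 10 to 20, 60 members were higher early and 2 lower on FPKM, but 7 were higher and 25 lower with upper quartile scaling. The shares of all tested genes were 61.2% and 14.6% on FPKM and 35.1% and 31.7% with upper quartile scaling. The medians were 0.36 for members and 0.35 for all tested genes on FPKM, and -0.09 and 0.02 with upper quartile scaling. Mrpl20 (0.77 ± 0.11, adjusted p 2.5e-07), Mrpl33 (0.73 ± 0.11, adjusted p 1.5e-06) and Mrpl54 (0.73 ± 0.11, adjusted p 7.1e-07) had the largest differences. Those of Mrpl33 and Mrpl54 did not pass the threshold with upper quartile scaling (adjusted p 0.085 and 0.084). Nor did that of Mrpl54 without the GC and length trend, where its log2 difference was 0.04. Mrpl14 and Mrpl27, both of the large subunit, went the other way. Mrpl14 was at 30.98, 44.38 and 46.86 FPKM at Day 1, at 57.4, 77.3 and 74.5 FPKM at Day 3 and at 82.8, 84.7 and 109 FPKM at Day 15. The livers of Day 1 lay below all livers of Days 10 to 20, which held 70.1 FPKM or more. Its difference was -0.58 ± 0.13 (adjusted p 2.4e-04), and that of Mrpl27 -0.28 ± 0.12 (adjusted p 0.041). Mrpl27 no longer passed the threshold without the filter on low values, nor when any of 13 single libraries of Day -2 to Day 20 was left out (-0.28 to -0.23), among them mouse 1 of Day -2 and mouse 3 of Day 10. Exons of Mrpl14 share 106 bases with Tmem63b on the opposite strand, and the library kit does not mark strand.

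Across birth, Day 0 against Day -2, 44 members were lower and 0 higher, and with upper quartile scaling 17 and 0; at an unadjusted p under 0.05 still 0 were higher on FPKM. Among all tested genes 41.4% were lower and 13.1% higher on FPKM, and 26.1% and 20% with upper quartile scaling. The median log2 difference was -0.42 for members and -0.29 for tested genes, and -0.17 against -0.08 with upper quartile scaling. The erythroid sum was 171810 FPKM before and 79529 FPKM at birth, and its part in the members' difference was not tested. Mrpl18, related to a bacterial protein that binds 5S rRNA, had the largest fall. It was at 27.17, 23.97 and 23.55 FPKM at Day -2 and at 8.405, 8.061 and 5.537 FPKM at Day 0. The difference was -1.65 ± 0.22 (adjusted p 6.7e-07), and its exons share 141 bases with Tcp1 on the opposite strand. Mrps22, of the small subunit, was at 11.3, 10.2 and 12.6 FPKM and then at 4.81, 4.18 and 3.28 FPKM, a difference of -1.29 ± 0.13 (adjusted p 3.9e-09). Mrpl32, which is cut to its mature form by the m-AAA protease of the inner membrane, was at 16.01, 16.63 and 16.02 FPKM and then at 9.69, 8.34 and 5.75 FPKM, a difference of -0.97 ± 0.13 (adjusted p 7.9e-07). All 3 stayed lower with upper quartile scaling and without the GC and length trend, as did 8 others, among them Mrps31, Mrpl50 and Mrps18c.

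On the first day of suckling, Day 1 against Day 0, 19 members were higher and 1 lower (6 and 1 with upper quartile scaling). Of all tested genes 23.7% were higher and 7.88% lower (14.7% and 12% with upper quartile scaling), and the medians were 0.15 for members and 0.19 for tested genes. Mrps31, Mrpl50 and Mrps22 were higher under all 3 treatments of the data. Mrps31 had 4.47, 3.94 and 1.62 FPKM at Day 0 and 8.61, 6.33 and 8.71 FPKM at Day 1, a rise of 1.09 ± 0.21 (adjusted p 3.1e-04). Mrpl50 had 7.90, 6.77 and 5.41 FPKM and then 15.9, 12.5 and 13.1 FPKM, a rise of 0.95 ± 0.15 (adjusted p 3.2e-05). Neither pair of ages overlapped. For the stalk protein Mrpl12 the livers were at 64.8, 60.6 and 68.5 FPKM and then at 96.1, 95.6 and 153 FPKM. Its rise of 0.79 ± 0.25 (adjusted p 0.020) did not pass the threshold with upper quartile scaling (adjusted p 0.10). Nor did it pass without mouse 2 of Day 0 (log2 difference 0.74) or mouse 3 of Day 1 (log2 difference 0.56). Mrps15 fell by 0.44 ± 0.16 on the log2 scale (adjusted p 0.037). Its livers were at 33.7, 26.9 and 39.1 FPKM at Day 0 and at 22.02, 24.29 and 26.01 FPKM at Day 1, and the call was lost without mouse 1 or 3 of Day 0 (-0.42 and -0.31) or mouse 1 or 2 of Day 1 (-0.37 and -0.44). The call of Mrps15 was also lost with TPM scaling, where no member was lower (5.28% of tested genes). More members were higher with it than on FPKM (26.2% of tested genes). The Day 0 livers are shared by this step and the step across birth.

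Across weaning, Day 25 against Day 20, 4 members were higher and 1 lower, beside 3.94% and 3.26% of all tested genes. With TPM scaling 9 were higher (4.8% of tested genes). Without the 2 libraries that had the largest length difference, one of them mouse 2 of Day 25, 2 were higher and the call of the lower member was lost, an alternative chosen after the data were seen. The median difference was 0.16 for members and -0.07 for tested genes. Mrps27, a pentatricopeptide repeat protein of the small subunit, was at 11.47, 9.666 and 11.20 FPKM at Day 20 and at 17.97, 21.39 and 16.53 FPKM at Day 25. Its rise was 0.73 ± 0.16 (adjusted p 0.0023), and at Day 30 it was at 11.45, 15.996 and 14.89 FPKM. Mrps18b was at 25.6, 18.3 and 19.9 FPKM at Day 20 and at 36.4, 38.8 and 30.8 FPKM at Day 25, a rise of 0.71 ± 0.19 (adjusted p 0.019). Mrpl15 rose by 0.48 ± 0.14 (adjusted p 0.031, and 0.072 without the GC and length trend), and Mrpl9 fell by 0.45 ± 0.13 on the log2 scale (adjusted p 0.031). Mrps27 and Mrps18b share 417 and 638 exon bases with noncoding genes on the opposite strand. The call of Mrps18b was lost without mouse 2 or 3 of Day 20 (log2 difference 0.62 and 0.68) and without mouse 1 or 2 of Day 25 (0.69 and 0.65). That of Mrpl9 was lost without mouse 2 or 3 of Day 20 or of Day 25 (-0.41 to -0.39). That of Mrpl15 was lost without any one of the 3 mice of Day 20, or mouse 1 or 3 of Day 25 (log2 difference 0.42 to 0.51). Mrps27 held its call in each case.

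Mitochondria hold 3 proteins related to bacterial S18. Mrps18a, of the large subunit, was at 27.1, 40.1 and 34.1 FPKM at Day -2 and at 25.2, 26.6 and 26.6 FPKM at Day 60, and its early-against-late difference was 0.07 ± 0.085 (adjusted p 0.43). Mrps18b had -0.06 ± 0.092 (adjusted p 0.51) in that comparison. Mrps18c was at 30.1, 31.7 and 30.7 FPKM at Day -2 and at 12.8, 12.6 and 16.4 FPKM at Day 60, a difference of 0.56 ± 0.063 (adjusted p 2.5e-09) that was -0.05 with upper quartile scaling (adjusted p 0.58). The order of the 3 in FPKM at Day 60 was Mrps18b (30.1), Mrps18a (26.1) and Mrps18c (13.9), while at Day -2 all 3 lay between 29.7 and 33.8 and their livers overlapped.

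Mrps30, a large subunit protein in spite of its symbol, had an early log2 difference of 0.63 ± 0.070 (adjusted p 2.3e-09). With upper quartile scaling that log2 difference was 0.02. The stalk proteins Mrpl10 and Mrpl12 had differences of 0.09 ± 0.061 (adjusted p 0.17) and -0.07 ± 0.12 (adjusted p 0.61). For Mrpl41, of the large subunit, it was 0.52 ± 0.050 (adjusted p 1.3e-10; -0.02 with upper quartile scaling). Mrps36 was at 2.04, 2.38 and 2.30 FPKM at Day -2 and at 0.48, 0.34 and 0.44 FPKM at Day 15. Its early difference was 0.49 ± 0.050 (adjusted p 3.0e-10), and 0.16 with upper quartile scaling (adjusted p 0.0043). That gene rests on about 25 fragments at its lowest age, and the annotation names 2 pseudogenes of it, from which reads may not be told apart.

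Other genes of mitochondrial translation and of its control were taken from lists of known members. Their counts stand beside the 70.2% of tested genes that were higher early and the 15.5% that were lower (46.8% and 32% with upper quartile scaling). Of 7 proteins of the mitochondrial ribosome under other names, 5 were higher early and 0 lower on FPKM, and 1 and 3 with upper quartile scaling. Dap3, a GTP-binding protein of the small subunit, had a difference of 0.96 ± 0.062 (adjusted p 1.5e-14; 0.40 with upper quartile scaling), against 0.12 ± 0.080 for Aurkaip1 (adjusted p 0.18). Ptcd3, a pentatricopeptide repeat protein of the small subunit, had 0.40 ± 0.068 (adjusted p 4.0e-06), and -0.15 with upper quartile scaling.

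Of 13 translation factors 6 were higher and 4 lower early (0 and 9 with upper quartile scaling). Tsfm (0.57 ± 0.078, adjusted p 1.2e-07) and Tufm (0.20 ± 0.088, adjusted p 0.041) were higher on FPKM. Tufm, which brings tRNA to the ribosome, was lower with upper quartile scaling (-0.32, adjusted p 0.0062). The elongation factor Gfm1, which moves the ribosome along the mRNA, was lower under both (-0.23 ± 0.098, adjusted p 0.029, and -0.79). The ends of the list were Taco1, the activator of Cox1 translation, at -0.38 ± 0.068 (adjusted p 9.1e-06), and Oxa1l, the membrane insertase, at 0.67 ± 0.075 (adjusted p 2.2e-09). The initiation factor Mtif2 had 0.16 ± 0.13 (adjusted p 0.23).

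Of 15 assembly and rRNA modification genes 12 were higher and 1 lower (4 and 7 with upper quartile scaling), from Gtpbp5 (-0.45 ± 0.073, adjusted p 1.5e-06) to the rRNA methyltransferase Mrm1 (1.18 ± 0.062, adjusted p 7.8e-17). Of 22 aminoacyl-tRNA synthetases and related enzymes 15 were higher and 2 lower (7 and 12). Gars and Kars in that list also serve the cytosol, and Gars had the largest difference (1.27 ± 0.065, adjusted p 5.9e-17), while Pet112l had the smallest (-0.28 ± 0.069, adjusted p 5.0e-04). Of 8 genes of mitochondrial transcription and mRNA stability 5 were higher and 1 lower (1 and 3). They ranged from Tfb2m (-0.26 ± 0.086, adjusted p 0.0060) to Ptcd1 (1.05 ± 0.052, adjusted p 2.1e-17). Tfam, which packs and transcribes mitochondrial DNA, had 0.34 ± 0.098 (adjusted p 0.0024), Polrmt, the RNA polymerase, 0.16 ± 0.065 (adjusted p 0.024), and Lrpprc, an mRNA stabilizer, 0.47 ± 0.087 (adjusted p 1.4e-05). With upper quartile scaling they had -0.16, -0.36 and -0.10.

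The nuclear regulators known for mitochondrial genes had a median early difference of 1.02, against 0.30 for the ribosomal proteins (0.65 and -0.30 with upper quartile scaling). Of 10 listed regulators 8 were tested. The coactivators Ppargc1a and Ppargc1b did not pass the filter on low values and are in neither the medians nor the counts. Of the 8 tested, 7 were higher early and 0 lower on FPKM, and 5 and 1 with upper quartile scaling. Nrf1, an activator of many mitochondrial genes, was at 11.7 ± 0.71 FPKM at Day -2, 5.58 ± 0.68 FPKM at Day 5 and, in the adult, 1.65 ± 0.17 FPKM. Its difference was 1.70 ± 0.069 (adjusted p 1.4e-19; 1.24 with upper quartile scaling). The coactivator Pprc1 had 1.62 ± 0.081 (adjusted p 2.7e-17) and Myc 1.88 ± 0.13 (adjusted p 2.8e-14). Of the subunits of the ETS factor GABP, Gabpb1 had 1.24 ± 0.069 (adjusted p 3.2e-16) and Gabpb2 0.79 ± 0.12 (adjusted p 8.1e-07). Gabpa had 0.32 ± 0.13 (adjusted p 0.026), with a log2 difference of 0.01 under upper quartile scaling. Yy1 had 0.58 ± 0.12 (adjusted p 8.7e-05), also with a log2 difference of 0.01 under upper quartile scaling. Esrra had -0.14 ± 0.076 (adjusted p 0.086). Proliferation markers (12 of 12) and erythroid and other blood cell markers (14 of 14 and 9 of 9) were also higher early. Differences ran from 2.82 (Alas2) to 8.35 (Slc4a1) for erythroid and from 0.64 (Ptprc) to 7.37 (Mpo) for other blood cell markers. For proliferation markers they ran from 1.07 (Bub1) to 4.49 (Ccna2). At Day 60 the summed proliferation markers were at 3.84 FPKM and the other blood cell markers at 2.64 FPKM. A marker that passed the filter only through early ages could hardly be called otherwise, so these counts are no test. Hepatocyte markers ran from -3.54 (Tat) to 0.51 (Fga), with 2 of 11 higher and 7 lower. The part of blood cells in the levels of the regulators and of the members was not tested.

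The members also shared features of gene layout (Gencode M1, mm9). They were spread over 17 chromosomes, with 10 on chromosome 11 and 8 on chromosome 17. A protein-coding gene that starts within 500 bases upstream on the opposite strand was annotated for 15 of the 76 (19.7%), against 10.5% of tested protein-coding genes, 11.9% of cytosolic ribosomal proteins and 25.3% of respiratory chain subunits. Among these Mrps12 was paired with Sars2, the mitochondrial seryl-tRNA synthetase, with starts 171 bases apart, Mrps27 with Ptcd2 (108 bases) and Mrpl49 with the cytosolic ribosomal protein gene Fau (135 bases). Others were Mrps18b with Ppp1r10 (45 bases), Mrpl32 with Psma2 (217 bases) and Mrpl40 with Hira (270 bases). Exons of 26 members share bases with another gene, and Mrpl46 and Mrps11 share 173 bases with each other, so that reads there cannot be told apart by strand. The annotation names pseudogenes of Mrpl23, Mrpl48 and Mrps36.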

How the data were processed

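RNA of 36 mouse livers (12 ages, 3 mice each) was measured by paired-end sequencing of polyadenylated RNA with a kit that does not mark strand. The authors deposited FPKM values per gene symbol; TopHat 1.2.0 and Cufflinks 1.0.3 are named in the submitters' processing notes, with mm9 and Ensembl 65. FPKM is relative to each library's total, so that a few abundant genes lower all others. From the FPKM values, log2(FPKM + 1) was fitted with limma 3.58.1 in R 4.3.3, with 1 mean per age over all 36 mice, empirical Bayes with a mean-variance trend, genes whose age mean reached 1 FPKM at some age (11149), and Benjamini-Hochberg adjustment over all tested genes within a comparison (for any age against Day 60, over all genes and the 11 comparisons), at 0.05. Every sample went to its age by its label. The p-values rest on the spread between mice of the same age, pooled over the 12 ages and moderated over genes. An age whose 3 mice differ more has no estimate of its own. Sums, tables and figures were made with Python 3.11.15, matplotlib 3.10.9, scipy 1.17.1, pandas 2.3.3 and numpy 2.4.6, and the fits were tested on simulated data.

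Depth was estimated from whole-fragment steps of 2030 low genes, where 72.1% of their values were within 0.1 of whole fragments. The step of each gene was set from its own smallest values, which lie near 1 fragment for that reason. That share is therefore no independent check of the depth. Relative depth was 0.879 to 1.37, at about 83400000 fragments per library (quartiles 73800000 and 90300000 over 1839 genes).

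The members and gene lists were chosen with earlier results of these data known. The text names the 5 members with the highest and the 3 with the lowest levels, the 3 with the largest calls in each direction of a comparison, the 3 with the largest and smallest ratio over ages, members with a known role of their own, and from other lists the regulators, fixed genes and the ends of each list. Alternatives were upper quartile and TPM scaling, a fit without the trend on GC content and transcript length, another pseudocount, other filters, no mean-variance trend, a replicate block, Dunnett's test and leaving out each library. One more, without 2 libraries in which short genes stood high, was chosen after seeing the data. Gene positions came from Gencode M1 (mm9). RefSeq promoters (GRCm38.p6) were matched by symbol for 67 of 76 members.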

Additional observations from a re-analysis of the deposited data

How the results depend on the processing

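Counts are members higher and lower, in that order. Where no share of tested genes is given here or above, a count is not set against other genes and shows nothing particular to the members. With upper quartile scaling, against Day 60 they were 16 and 15 at Day -2, 5 and 20 at Day 0, 6 and 15 at Day 1, 2 and 23 at Day 3, 6 and 9 at Day 5, 6 and 8 at Day 10 and 4 and 2 at Day 15, and 2, 4 and 2 were higher at Days 20, 25 and 30. Of tested genes 30.2% and 15.6% were called at Day 10 and 21.5% and 10.3% at Day 15. At Days 20, 25 and 30 the shares higher were 14%, 6.91% and 3.79%. Early against late ages gave 7 and 44 (median log2 difference -0.30, which reversed), Days 10 to 20 against late ages 5 and 32 (-0.20), early ages against Days 10 to 20 7 and 25 (-0.091, reversed), Day 0 against Day -2 17 lower (-0.17) and Day 1 against Day 0 6 higher (0.0068). With the GC and length trend removed, against Day 60 they were 25 and 16 at Day -2, 12 and 37 at Day 0, 6 and 30 at Day 1, 7 and 32 at Day 3, 10 and 16 at Day 5 and 6 and 4 at Day 20, with 15 and 6 lower at Days 10 and 15, and 4 and 3 higher at Days 25 and 30. Of tested genes 41.1% and 35% were called at Day -2, 35.4% and 35.1% at Day 0 and 33.2% and 30.9% at Day 1. The shares were 31.4% and 32.2% at Day 3, 30.5% and 30.3% at Day 5 and 14.3% and 13.2% at Day 20. At Days 10 and 15 24.9% and 18.1% were lower, and at Days 25 and 30 7.59% and 4.09% were higher. Early against late ages gave 12 and 46 (median -0.21, reversed), Days 10 to 20 against late ages 32 lower (26.3% of tested genes), early ages against Days 10 to 20 10 and 33 (-0.070, reversed; 37.2% and 37.3%), Day 1 against Day 0 6 lower (18%) and Day 25 against Day 20 2 lower (7.06%). With TPM scaling 2, 14, 1, 2 and 2 were lower at Days -2, 0, 3, 10 and 15 against Day 60, 4, 4 and 6 higher at Days 20, 25 and 30, 8 lower in early against late ages, 29 and 0 changed in Day 1 against Day 0, and 9 were higher in Day 25 against Day 20. The cause of these shifts was not tested. At a pseudocount of 0.1, 2 were lower at Day 15, and 0 without the filter or the mean-variance trend. Without the filter 1 was lower in early ages against Days 10 to 20. The filter at 5 FPKM moved no count by over 1.5 times. Without the 2 libraries in which short genes stood high, 2, 2 and 1 were lower at Days 10, 15 and 20 against Day 60, 0 were higher at Day 25, and 2 and 0 changed in Day 25 against Day 20.

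Leaving out 1 library at a time moved the median of Day 0 against Day -2 between -0.56 and -0.34. Lower members against Day 60 ranged from 0 to 1 at Day -2, 4 to 8 at Day 0 (the count moved without mouse 2 or 3 of Day 60), 1 to 4 at Day 1, 0 to 2 at Days 10 and 15 and 0 to 1 at Day 20. Higher members ranged from 2 to 7 at Day 15, 0 to 2 at Day 20, 0 to 3 at Day 25 and 0 to 1 at Day 30. Early ages against Days 10 to 20 gave 1 to 2 lower, Day 1 against Day 0 12 to 20 higher and 0 to 1 lower, and Day 25 against Day 20 1 to 5 higher and 0 to 2 lower. No named member changed direction, and 33 of their leave-one-out values, all given by member in the report, passed the threshold no longer.

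The replicate numbers of the labels were tried as a replicate block. Same-numbered mice of different ages deviated together (r over 0.1) in 104 of 198 pairs, with a median r of 0.13, and differently numbered mice in 147 of 396, with a median r of -0.048. Of the 36 mice 19 correlated best with their own number, and the median member of mouse 1 lay below its age mean at 10 of 12 ages and that of mouse 3 above it at 10. This is a hint from the data that numbers may share something; the labels do not say what a number marks and not every pair passed 0.1, so the block was kept as an alternative. With the replicate block 5, 4 and 1 were lower at Days 10, 15 and 20 against Day 60, 2 were higher at Day 30 and 10 in Day 25 against Day 20. Levels near 1 FPKM, as of Mrps36 and Mrps33, rest on the fewest fragments.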
